A study of Sus scrofa with 6 samples.

Results

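Enzymes that convert oestrogens, androgens and glucocorticoids were examined in scrapings of uterine epithelium taken from both horns of 3 sows. The rule took all probe sets whose symbol in the array annotation is 1 of 10 enzyme genes. Of these, 8 genes were on the array, among 6765 genes named there, with 12 probe sets of 23999 tested. Where a gene has several probe sets, letters order them by signal, (a) being the brightest. No probe set was named STS (steroid sulfatase) or SRD5A1 (a steroid 5-alpha reductase), and these were not analysed here. An additional probe set that the annotation shares between several CYP19 genes was left out.

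The animals were weaned crossbred sows (Landrace x Large White) of differing parity, inseminated in oestrus after weaning. Their age was not given in the sources used here. In each sow 1 oviduct received spermatozoa through laparoscopy, and the opposite oviduct received diluent alone. On day 6 the inseminated side held embryos at the blastocyst stage and the opposite side held oocytes. Both horns thus shared the same animal, anaesthesia and circulating hormones. Each group was 3 horns, 1 per sow, and each horn was hybridised to its own Affymetrix porcine array after flushing and scraping near the utero-tubal junction (the first 10 cm in the labels).

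A cell controls how much active steroid it holds by local conversion as well as by supply from the blood. Aromatase makes oestrogens from androgens, 17-beta hydroxysteroid dehydrogenases interconvert oestrone and the more potent oestradiol, and oestrogen sulfotransferase adds a sulfate that keeps an oestrogen from its receptor. In the endometrium progesterone is known to raise the enzymes that inactivate oestradiol. The pig blastocyst makes oestrogens of its own later, when it elongates, and this signal takes part in the maternal recognition of pregnancy in this species.

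Values are signals in arbitrary units on a linear scale, as deposited. Differences are log2 fold changes, embryos over oocytes, after normalization between arrays, and a positive value means higher with embryos. The signals of different probe sets are not compared as amounts, since each has its own response. As a guide to how dim a probe set was, the percentile of its mean signal among all probe sets is given. RNA abundance in scraped tissue cannot tell apart fewer cells of a type and less RNA per cell.

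The scraped cells carried epithelial RNA, with EPCAM, an epithelial adhesion molecule, between 2014 and 2328 on the 6 arrays. Stromal RNA was present as well, with VIM (vimentin) between 1209 and 2670 and DCN (decorin) between 1185 and 2437. Control probe sets showed a 5'/3' ratio for GAPDH of 0.200 to 0.355 with oocytes and 0.130 to 0.243 with embryos, lower with embryos in each sow. The mean log2 ratio over GAPDH and actin differed by -0.49, embryos minus oocytes. By sow the difference was -0.55, -0.74 and -0.19. An exact permutation test (two-sided) with the horns of a sow kept as a pair gave p = 0.25, the smallest that 3 pairs allow, and the same kind of exact test ignoring the pairs gave p = 0.4, where the smallest possible is 0.1.

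None of the steroid converting enzymes passed the test between horns with embryos and horns with oocytes. With limma 0 of the 12 probe sets had an adjusted p of at most 0.05 (background 0% of all probe sets), and 0 had an unadjusted p under 0.05 (background 2.88%). With the sow entered as a block these counts stayed at 0 and 0, against backgrounds of 0% and 8.7%, and the smallest adjusted p among the 12 was 0.670. The median log2 fold change of the 12 probe sets was -0.03, beside 0.01 over all probe sets. For the 8 probe sets outside aromatase the 95% intervals lay between 0.737-fold and 1.50-fold with the block, and between 0.403-fold and 2.21-fold without it, and those of aromatase were wider still.

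HSD17B2 oxidises oestradiol to the weaker oestrone and is the main oestradiol-inactivating dehydrogenase known in endometrium. Its brighter probe set had signals of 553, 579 and 1003 in the oocyte horns of sows 1, 2 and 3 and 552, 610.0 and 986 in the embryo horns. The groups overlapped almost completely, since the pair of horns of each sow read nearly alike. The ratios of embryos to oocytes were 0.999, 1.05 and 0.983. The log2 fold change was 0.02 (standard error 0.27 with limma, or 0.07 once the sow was a block), and the 95% interval with the block ran from 0.905-fold to 1.13-fold.

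The dimmer HSD17B2 probe set had 243, 134 and 323 with oocytes and 205, 144 and 267 with embryos. It was lower with embryos in sows 1 and 3 and higher in sow 2, with ratios of 0.841, 1.07 and 0.826. Its log2 fold change was -0.15 (standard error 0.33, and 0.11 with the block), with an interval from 0.767-fold to 1.06-fold with the block. Both probe sets were highest in sow 3, but they placed sows 1 and 2 differently: the brighter one read them nearly alike, and the dimmer one read sow 1 above sow 2.

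HSD17B4, a peroxisomal enzyme that combines steroid oxidation with the breakdown of long fatty acids and that was purified from pig uterus, had 393, 292 and 351 with oocytes. With embryos it had 367, 292 and 329. The normalized values were lower in the embryo horn of each sow, though by little, with ratios of 0.935, 1.00 and 0.938 on the deposited signals. The log2 fold change was -0.07 (standard error 0.16, and 0.08 with the block) and the interval with the block ran from 0.843-fold to 1.08-fold. Counted over the 12 probe sets, 2 were lower in each of the 3 sows and 0 were higher in each, against backgrounds of 14.8% and 14.9%, and the other lower one belonged to aromatase. With the values as deposited HSD17B4 was not lower in sow 2, and that count became 1.

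HSD17B8, which oxidises oestradiol and also serves mitochondrial fatty acid synthesis, had 172, 196 and 192 with oocytes and 212, 229 and 182 with embryos. Sows 1 and 2 were higher with embryos and sow 3 was lower, with ratios of 1.23, 1.17 and 0.946. The log2 fold change of 0.14 was the highest outside aromatase (standard error 0.14, and 0.10 with the block, unadjusted p = 0.338 and 0.199 from limma). The interval with the block, 0.940-fold to 1.30-fold, included no difference.

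HSD17B12 reduces 3-ketoacyl-CoA in the elongation of fatty acids and can reduce oestrone to oestradiol. It had 187, 316 and 278 with oocytes and 206, 338 and 273 with embryos. The groups overlapped, the ratios were 1.10, 1.07 and 0.982, and the log2 fold change was 0.07 (standard error 0.23, and 0.09 with the block). Its interval with the block ran from 0.916-fold to 1.20-fold.

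SULT1E1, the oestrogen sulfotransferase, had 66.5, 118 and 292 with oocytes and 78.9, 108 and 228 with embryos. The embryo horn was higher in sow 1 and lower in sows 2 and 3, with ratios of 1.19, 0.921 and 0.780. The log2 fold change was -0.08 (standard error 0.54 with limma, and 0.13 with the block). The interval with the block ran from 0.771-fold to 1.16-fold, whereas without the block the spread between sows widened it to between -1.31 and 1.15 on the log2 scale. Leaving out 1 array at a time, without the block, moved the log2 fold change between -0.57 and 0.49.

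The pair of 11-beta hydroxysteroid dehydrogenases handles glucocorticoids, HSD11B1 making active cortisol and HSD11B2 inactivating it. HSD11B2 had 381, 201 and 126 with oocytes and 377, 136 and 144 with embryos. The horns of sow 1 were alike, the embryo horn was lower in sow 2 and it was higher in sow 3, with ratios of 0.989, 0.675 and 1.14. The log2 fold change was -0.14 (standard error 0.48, and 0.14 with the block), with an interval from 0.737-fold to 1.12-fold with the block.

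HSD11B1 had lower signals, at percentile 57.7 of the array, with 48.4, 33.3 and 62.3 with oocytes and 42.6, 52.3 and 55.0 with embryos. Its horns differed most in sow 2, where the ratio was 1.57, against 0.880 and 0.883 in sows 1 and 3. The log2 fold change was 0.09 (standard error 0.28, and 0.22 with the block). Its interval with the block, 0.757-fold to 1.50-fold, was the widest outside aromatase.

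**Figure D1:**
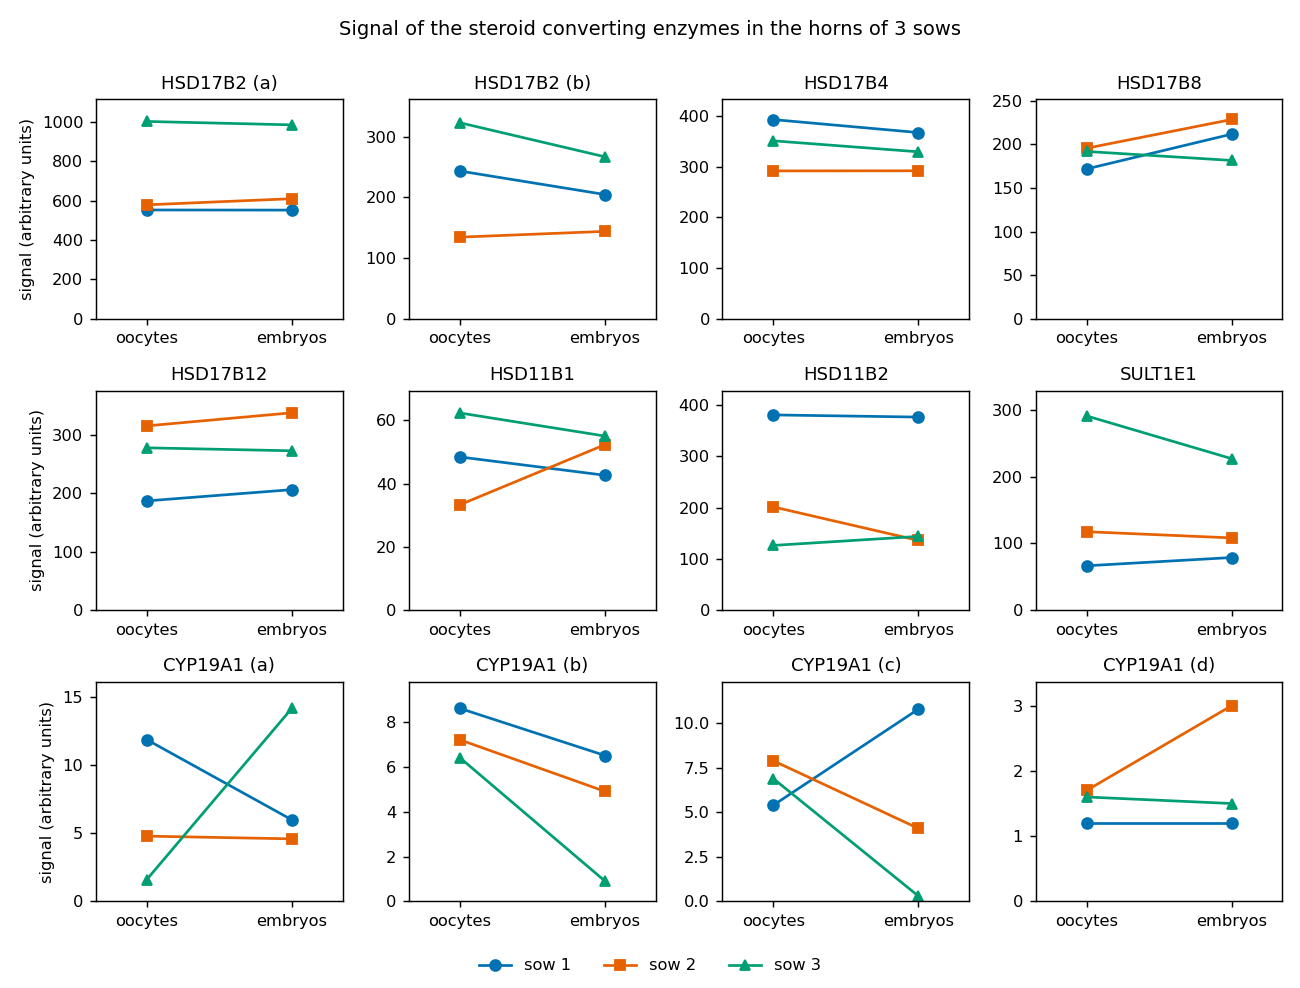
Signal (arbitrary units, y axis from 0) of each of the 12 probe sets in the horns with oocytes and with embryos; symbols and colours mark the sow and lines join the horns of 1 sow. HSD17B2 (a) and SULT1E1 stay highest in sow 3 in both horns and HSD11B2 stays highest in sow 1, while the aromatase probe sets (bottom row) read at most 14.2.

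CYP19A1 encodes aromatase, the only enzyme in this set that makes oestrogens from androgens. The pig carries several close copies of this gene with different tissue use, so a probe set may not separate them, and the values are uncertain for that reason too. Its 4 probe sets were all dim, between percentiles 5.21 and 21.1 of the array, with signals of 0.3 to 14.2. Detection calls are not used here, so whether aromatase RNA was present cannot be stated.

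The probe set labelled CYP19A1 (a) in the plots had 11.9, 4.8 and 1.6 with oocytes and 6.0, 4.6 and 14.2 with embryos. Sow 3 alone carried its higher mean with embryos. CYP19A1 (b) had 8.6, 7.2 and 6.4 with oocytes and 6.5, 4.9 and 0.9 with embryos. It was lower with embryos in each sow, and it was the only probe set of the 12 whose normalized values did not overlap between groups (background 8.01%). On the deposited signals its groups overlapped, and its log2 fold change of -1.29 (standard error 0.79) did not pass, with an unadjusted p of 0.139 from limma and 0.117 with the block. Without the embryo horn of sow 3 it was -0.42, and with 32 added to each signal -0.13.

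CYP19A1 (c) had 5.4, 7.9 and 6.9 with oocytes and 10.8, 4.1 and 0.3 with embryos, so that the embryo horn was higher in sow 1 and lower in sows 2 and 3. CYP19A1 (d) stayed between 1.2 and 3.0 on all arrays. The log2 fold changes of the 4 probe sets ran from -1.52 to 0.68 and did not share a sign. The lowest, that of CYP19A1 (c), became -0.04 without the embryo horn of sow 3, and -0.08 with 32 added to each signal. Their intervals with the block reached from 0.0726-fold at the lowest to 5.68-fold at the highest. Those of CYP19A1 (a) and (d) held a severalfold rise and, starting at 0.450-fold and 0.288-fold, a fall as well. Those of CYP19A1 (b) and (c) ended at 1.31-fold and 1.68-fold and held a severalfold fall.

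**Figure D2:**
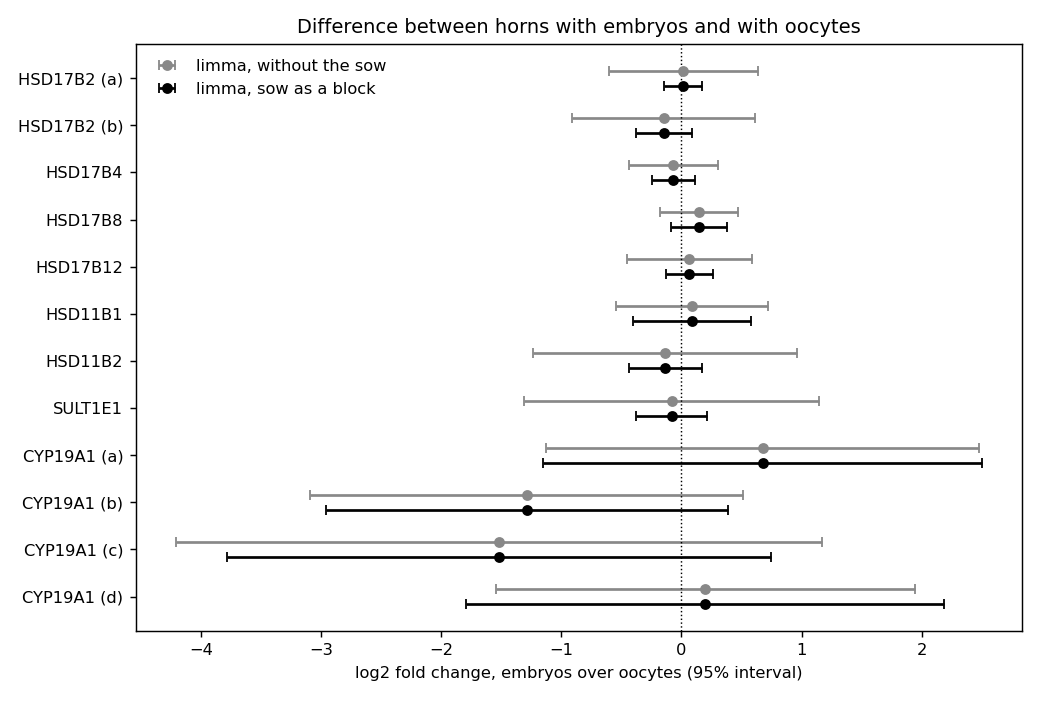
Log2 fold change of embryos over oocytes (x axis) with its 95% interval for each of the 12 probe sets, from limma without the sow (grey) and with the sow as a block (black). All intervals include 0; with the block those of HSD17B2 (a) and HSD17B4 are the narrowest and those of CYP19A1 the widest.

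Several of these enzymes did differ between the 3 animals. A test of the sow, chosen after the values were seen, used the fit with group and sow and asked whether the 3 sows differed, with the horns of a sow as its pair of arrays. With limma 6 of the 12 probe sets passed at an adjusted p of at most 0.05 (background 11.3% of all probe sets, and 20.8% of those with a signal above the median). These were both HSD17B2 probe sets, HSD17B4, HSD17B12, HSD11B2 and SULT1E1. HSD17B8, HSD11B1 and the 4 aromatase probe sets did not pass.

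SULT1E1 had the smallest adjusted p of the 12. Its mean over the horns was 72.7 in sow 1, 113 in sow 2 and 260 in sow 3, a 3.57-fold range. Sow 3 lay above sow 1 by 1.81 (standard error 0.16) and above sow 2 by 1.17 on the log2 scale (adjusted p = 0.000342 with limma). The brighter HSD17B2 probe set was also highest in sow 3, by 0.81 over sow 1 and 0.76 over sow 2 (standard error 0.09, adjusted p = 0.000585 with limma), and sows 1 and 2 lay only 0.05 apart. Both thus read highest in the same animal, in each of its horns. The other dehydrogenases that oxidise oestradiol did not share this order: HSD17B4 was highest in sow 1, and HSD17B8 had 192, 212 and 187 and did not pass.

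HSD11B2 ran the other way. Its mean was 379 in sow 1, 169 in sow 2 and 135 in sow 3, a 2.81-fold range, and sow 1 exceeded sow 3 by 1.53 on the log2 scale (adjusted p = 0.000837 with limma). Sow 3 minus sow 2 was only -0.30 (standard error 0.17), and their order differed between the horns. HSD17B12 was lowest in sow 1, at 197 against 327 in sow 2 and 275 in sow 3 (adjusted p = 0.00651 with limma). HSD17B4 was highest there, at 380, against 292 and 340 (adjusted p = 0.0451 with limma). The dimmer HSD17B2 probe set had 224, 139 and 295 (adjusted p = 0.00160 with limma).

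Markers of some other cells moved between the sows as well. Over the array 11.3% of all probe sets passed the sow test, and 20.8% of those with a signal above the median. The 5 stromal markers on the array had a summed signal of 7022 and 6559 in the horns of sow 1, 3305 and 3220 in sow 2 and 4697 and 4887 in sow 3, and 4 of the 5 passed the sow test. The 5 smooth muscle markers summed to 2273 and 1550 in sow 1, 561 and 682 in sow 2 and 923 and 1015 in sow 3, and 2 of the 5 passed. The 7 epithelial markers summed to 7872 and 7652 in sow 1 and to between 9847 and 10426 in sows 2 and 3, with KRT8 and CDH1 passing and EPCAM not (adjusted p = 0.526 with limma), while the dim MUC1 read highest in sow 1 and did not pass. None of these markers was at 0. Of the 5 endothelial and the 6 leukocyte markers on the array 0 passed the sow test, and of the 2 ciliated cell markers 1 passed. None of the leukocyte markers had a signal above the median. The means over the horns of the endothelial PECAM1, CDH5, VWF and TEK had the sow order of the stromal sum, and those of the dim KDR did not. The 2 red cell markers on the array ran in opposite directions. ALAS2, the haem synthesis enzyme of red cells, had 70.0 and 134.5 in sow 1, 442 and 401 in sow 2 and 675 and 728.5 in sow 3, the order of SULT1E1, and passed. HBB, a globin chain, had 292 and 289 in sow 1, 251 and 255 in sow 2 and 291 and 213 in sow 3, and did not pass (sow 3 minus sow 1 -0.27, adjusted p = 0.342 with limma). HSD11B2 was highest in the sow with the highest stromal and smooth muscle sums. Both sums were higher in sow 3 than in sow 2. HSD11B2 had 201 in sow 2 and 126 in sow 3 with oocytes, and 136 and 144 with embryos. HSD17B4, with means of 380, 292 and 340 in sows 1, 2 and 3, had the order of both sums. HSD17B12, with 197, 327 and 275, had the reverse order. SULT1E1 and both HSD17B2 probe sets were highest in sow 3. The 5'/3' control ratio was highest in sow 1 and lowest in sow 2 in both horns. The part of cell makeup, blood and RNA quality in the sow differences was not tested. Anything shared by the arrays of 1 sow, such as handling, cannot be told apart from the animal.

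These calls hung on the variance model. Without a trend of the variance on the signal 0 of the 12 passed, as did 0 of all probe sets, with 5 of the 12 and 3709 of all at an unadjusted p under 0.05. In the other settings, and without each array in turn, 4 to 6 of the 12 passed, and these were among the same 6: HSD17B4 was lost in 6 of these settings, and HSD17B12 as well without the oocyte horn of sow 1.

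**Figure D3:**
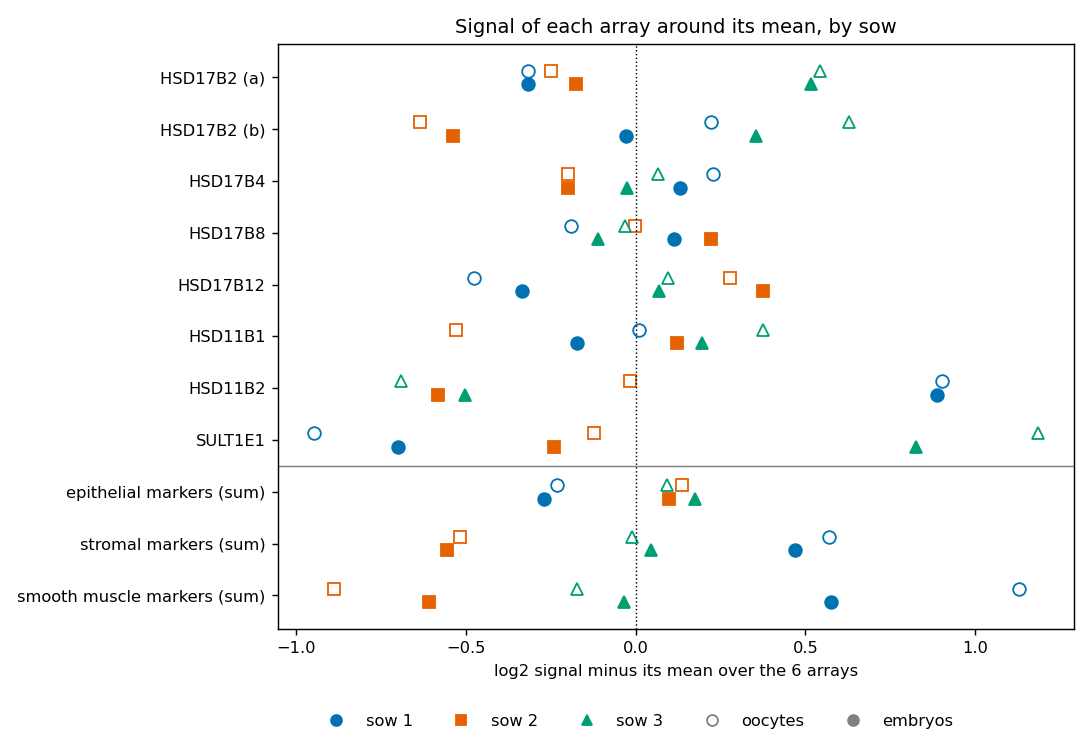
Log2 signal of each array minus the mean of the 6 arrays (x axis) for the 8 probe sets outside aromatase and, below the line, for the summed signal of the epithelial, stromal and smooth muscle markers. Open symbols are horns with oocytes and filled symbols horns with embryos. SULT1E1 and HSD17B2 (a) have sow 3 on the right, and HSD11B2 and both non-epithelial sums have sow 1 on the right. In both of these sums sow 3 lies right of sow 2, while for HSD11B2 the order of sows 2 and 3 differs between the horns.

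The probe sets whose normalized values followed the brighter HSD17B2 probe set most closely over the 6 arrays were those of BCAT1, a branched-chain aminotransferase (Pearson r = 0.997), SLC31A2, a copper transporter (0.994), ST6GAL1, a sialyltransferase (0.994), ATP1B1, a sodium pump subunit (0.994), and FN3K, a fructosamine kinase (0.992). They are the closest 5 of 6103 above-median probe sets with 1 symbol, of which 96 exceeded 0.9. Each was highest in both horns of sow 3. BCAT1, with the widest difference of the 5, had 60.8, 61.2 and 197 with oocytes and 67.0, 64.0 and 201 with embryos. FN3K, with signals of 29.3 to 41.9, did not pass the sow test (adjusted p = 0.529 with limma), and the others did. With 3 sows such correlations rest mainly on 1 animal. SULT1E1 correlated with that HSD17B2 probe set at 0.938 and HSD11B2 at -0.682 over the same arrays. With the dimmer HSD17B2 probe set these values were 0.465 and -0.022. The strongest correlation among the 8 probe sets outside aromatase was -0.967, between HSD17B12 and HSD17B4.

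The other genes of steroid metabolism were read at their brightest probe set. Of 25 further dehydrogenases and reductases 12 were on the array, and 0 passed between horns with limma. Among those with a signal above the median, HSD17B10, a mitochondrial dehydrogenase, lay at -0.07, HSD17B7, which serves cholesterol synthesis and can reduce oestrone, at 0.08, HSDL2 at -0.10 and AKR1CL1 at -0.22. HSD17B7 had 154, 299 and 160.0 with oocytes and 157, 275 and 205 with embryos, and like AKR1CL1 it differed between sows (adjusted p = 0.00679 and 0.0145 with limma). The list had a median log2 fold change of 0.02, beside 0.01 over all probe sets, and a range from -0.35 to 1.20 in which the extremes were dim.

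Of 18 genes that deliver cholesterol or carry the steps before oestrogen, 13 were on the array, and 0 passed between horns. The largest differences in p were those of FDXR, the reductase that feeds electrons to mitochondrial steroid hydroxylases, at 0.36 (standard error 0.21, unadjusted p = 0.122 from limma), and of STARD3, a cholesterol transfer protein, at 0.37 (standard error 0.27, unadjusted p = 0.200 from limma). FDXR had 42.7, 42.2 and 39.7 with oocytes and 56.9, 57.4 and 46.6 with embryos, higher in each sow. TSPO, a mitochondrial outer membrane protein that binds cholesterol, lay at 0.13, and SCARB1, the lipoprotein receptor, at 0.10. CYP11A1 and CYP17A1, which open the route from cholesterol to sex steroids, and STAR were dim, at percentile 13.3 or below.

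Of 23 genes of steroid conjugation and hydroxylation 9 were on the array, and 0 passed. PAPSS1 and PAPSS2 make the sulfate donor that SULT1E1 uses, and lay at -0.01 and -0.09. PAPSS2 had 320, 316 and 500 with oocytes and 301, 312 and 445 with embryos, so that it too was highest in sow 3 (adjusted p = 0.00541 for the sow with limma), where SULT1E1 was highest. PAPSS1 was not called (adjusted p = 0.126 with limma), with 609, 653 and 544 with oocytes and 580, 688 and 534 with embryos. GUSB, a glucuronidase, lay at 0.07. SUMF1, which activates sulfatases, was the only one of the 9 at an unadjusted p under 0.05 (0.0214 from limma, background 2.88%). Its signals were dim, at 5.8, 5.5 and 8.6 with oocytes and 1.5, 3.2 and 1.0 with embryos. It was named after its values were seen.

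Of 14 steroid receptor genes and cochaperones 10 were on the array and 0 passed. ESR1, the oestrogen receptor alpha, had 80.9, 48.7 and 68.3 with oocytes and 41.2, 45.4 and 43.9 with embryos, lower in each sow. It lay at -0.58 (standard error 0.23), with an unadjusted p of 0.0373 from limma and 0.0189 with the block (adjusted p = 0.473 with the block). ESR1 was the only gene of the 10 at an unadjusted p under 0.05 with limma (background 2.88%), and with the block there were 3 (background 8.7%). The others were PGRMC1, a membrane haem-binding protein linked to progesterone, at -0.20 and lower in each sow (unadjusted p = 0.0185 with the block, limma), and NR5A1, a nuclear receptor that drives steroid synthesis genes, at 1.25 and higher in each sow (unadjusted p = 0.0275 with the block, limma). NR5A1, whose signal was below the median, was named after its values were seen. PGR, the progesterone receptor, lay at -0.21.

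**Figure D4:**
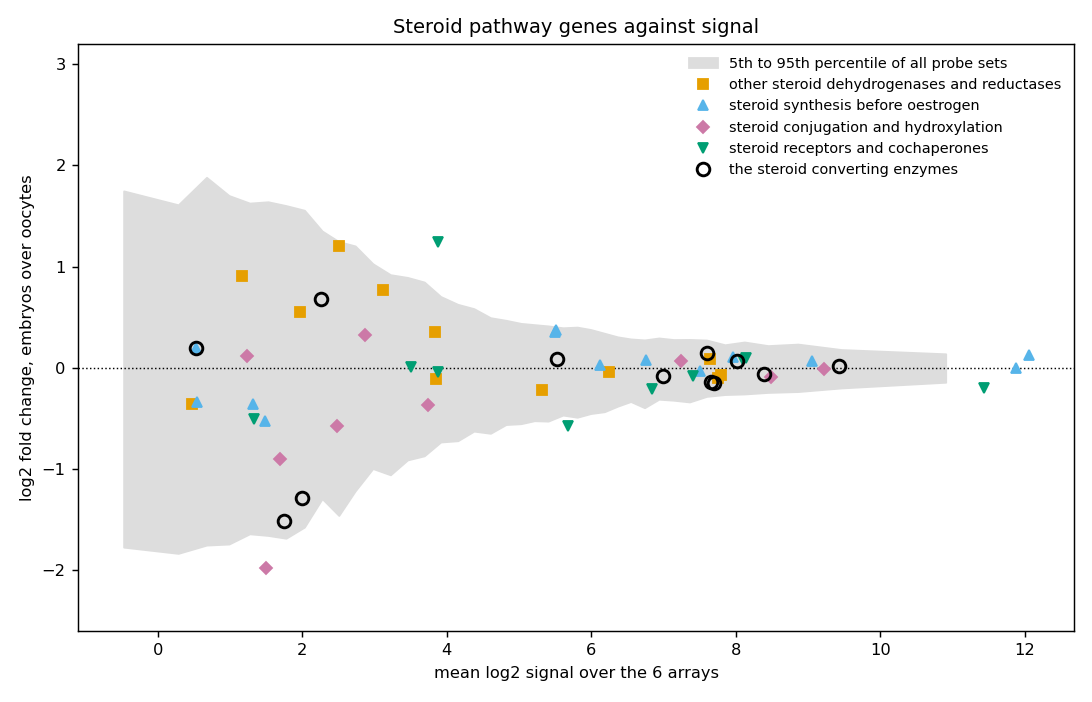
Log2 fold change of embryos over oocytes (y axis) against the mean log2 signal over the 6 arrays (x axis) for the 12 probe sets of the steroid converting enzymes (open circles) and the brightest probe set of each gene of the 4 related lists; the grey band spans the 5th to the 95th percentile of all probe sets in 40 bins of signal. The enzyme probe sets all lie inside the band, which widens toward low signals, where the aromatase probe sets sit.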

How the data were processed

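The authors made the deposited intensity signals per probe set with MAS5 version 5.1, per the labels, on a linear scale. All arrays share 1 trimmed mean (2% left out at each end), and no Lowess step is in the deposited signals. For arrays the number of horns, not a depth, limits the precision. After a floor of 0.1 the signals were log2 transformed and normalized by cyclic loess, and 124 control probe sets of 24123 were removed. Differences were tested with limma 3.58.1 (R 4.3.3) with a variance trend and Benjamini-Hochberg adjustment over 23999 probe sets. Plots used matplotlib 3.10.9.

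Gene symbols come from the array annotation, and those of all 8 enzymes matched a current gene table by identifier. Every probe set of the enzymes is named, as are up to 4 above-median genes of each related list with the smallest p. The enzymes and lists were chosen with earlier results of these data known. Equal replicate numbers were taken as 1 sow: the labels number biological replicates, the design gives 3 sows, each array correlated best with its partner, and paired deviations correlated at 0.207, 0.173 and 0.100. The alternatives tried were the deposited values without normalization, quantile normalization, median scaling, an added 32, above-median probe sets, the sow as a block, a fit without the variance trend, and leaving out each array.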

Additional observations from a re-analysis of the deposited data

How the results depend on the processing

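No enzyme probe set passed between the horns under any alternative (smallest adjusted p = 0.670, limma with the sow as a block). In all of them 0 of the 12 had an unadjusted p under 0.05. Over the whole array 692 of 23999 probe sets (2.88%) at an unadjusted p under 0.05 became 2088 (8.7%) with the sow as a block (replicate block). In the fit to the 11999 above-median probe sets alone there were 232. The block changed no call among the enzyme probe sets. Among the 10 steroid receptor genes and cochaperones it raised the number at an unadjusted p under 0.05 from 1 to 3. The number of enzyme probe sets lower in all 3 sows went from 2 to 1 with the values as deposited and with median scaling, and the number higher in all 3 went from 0 to 1 with quantile normalization (HSD17B2). Leaving out 1 array breaks a pair, so that differences between sows enter the comparison: the median log2 fold change of the 12 then ran from -0.15 to 0.14. Single probe sets changed sign among such values, with ranges of -0.24 to 0.28 and -0.51 to 0.12 for HSD17B2, -0.19 to 0.051 for HSD17B4, -0.14 to 0.24 for HSD17B12, -0.13 to 0.31 for HSD11B1, -0.62 to 0.30 for HSD11B2, -0.57 to 0.49 for SULT1E1, and -0.016 to 1.31 and -0.26 to 0.55 for CYP19A1 (a) and (d). CYP19A1 (b) and (c) kept their sign but ran from -1.75 to -0.42 and from -2.53 to -0.04, nearest 0 without the embryo horn of sow 3. Of 152 values over all alternatives, 19 changed sign, and all 19 came from leaving out 1 array. The block, the fit without the variance trend and the above-median fit use the same normalized values. Their log2 fold changes are the main ones, so those signs could not change. The sow test called 2707 probe sets over the array, 0 without the variance trend and 1387 to 3683 without 1 array, and 6 enzyme probe sets, 0 without the trend and 4 to 6 without 1 array. The 5'/3' control difference kept its direction without each array and, by construction, its size with the sows paired. Dim signals limit what can be said of aromatase.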
